A study of Mus musculus with 6 samples.

Results

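p53, encoded by Trp53 in the mouse, and 9 of its direct target genes were followed in splenic leukaemia cells from recipients treated with a casein kinase 1 inhibitor. The members are a set named by their known biology and were found in the count table by gene symbol; results from these data were known when the set was drawn up. All 10 were found among 54232 genes, and all 10 had enough counts to be tested among 10067 genes.

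The cells came from the Eµ-TCL1 adoptive transfer model of chronic lymphocytic leukaemia (CLL). In this model the TCL1 oncogene is driven in B cells, and mononuclear cells from the spleens of diseased Eµ-TCL1 mice were passed into wild-type C57BL/6J recipients. The CK1i group (3 libraries) received 50 mg/kg of PF-670462 by mouth in 10% kolliphor in PBS, a compound that blocks the delta and epsilon forms of casein kinase 1. The CTRL group (3 libraries) received 10% kolliphor in PBS alone. In both groups treatment began 5 days after transfer, was given on 5 days of each cycle with 2 days of recovery, and lasted 8 weeks. The age and sex of the recipients and the number of leukaemia donors are not given in the sources used here. Both groups carry transferred Eµ-TCL1 leukaemia, and spleens without leukaemia were not analysed here. Whether each library stands for a separate mouse is not given in the labels, and the p-values then measure only how these samples spread, which may be technical.

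p53 is a transcription factor that is held low in unstressed cells by MDM2, a ubiquitin ligase, and by its relative MDM4. After DNA damage or other stress it accumulates and turns on genes of cell cycle arrest, cell death, DNA repair and metabolism, Mdm2 itself among them, which closes a feedback loop. Casein kinase 1 delta and epsilon can phosphorylate p53 and MDM2. The libraries measured RNA, so neither phosphorylation nor protein level was read.

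The p53 response element is the DNA sequence through which the targets are recognised, and its matches near the start sites are shown first to let the element be read in the members themselves. Known elements of p53 targets also lie in introns and farther upstream, outside the windows searched, so a half-site here does not mean that a gene lacks a complete element. Promoter windows from RefSeq (GRCm38.p6, 250 bases before to 50 bases after each start site) were held for 8 of the 10 members, 11 windows in all. They were searched for the p53 half-site consensus, a run of 10 bases that reads the same on both strands. They were also searched for a full site, 2 such runs with a spacer of 0 or 1 base, the C and G of each core kept and at most 2 of the 20 bases mismatched. A full site was present in Cdkn1a and Ccng1, 2 of the 8 members, against 0.807% of all genes with a window. A half-site was present in 7 of the 8 members, against 9.55% of all genes. Trp53 itself is 1 of these 8. The other members are established p53 targets, and the match limits were set after the windows had been read, so these shares are a description. Each sequence below runs 5′ to 3′ on the strand of the gene, with the matched bases in capitals.
Cdkn1a full site: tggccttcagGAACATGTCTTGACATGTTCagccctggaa
Ccng1 full site: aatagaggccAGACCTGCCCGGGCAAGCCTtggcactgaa
Cdkn1a further half-site: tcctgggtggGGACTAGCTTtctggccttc
Trp53 half-site: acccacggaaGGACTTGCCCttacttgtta
Mdm2 half-site: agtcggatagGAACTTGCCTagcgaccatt
Sesn1 half-site: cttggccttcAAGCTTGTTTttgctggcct
Ei24 half-site: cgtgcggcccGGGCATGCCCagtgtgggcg
Aen half-site: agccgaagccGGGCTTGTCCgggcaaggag

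The Cdkn1a full site (printed stretch chr17:29090918-29090957, plus strand) began 51 bases before the more upstream of the 2 RefSeq start sites of the gene, and the further half-site (chr17:29090896-29090925, plus strand) began 73 bases before the same start. The Ccng1 full site (chr11:40755452-40755491, minus strand) began 195 bases before the start site. Both full sites had 1 mismatch and a spacer of 0. The Trp53 half-site (chr11:69580274-69580303, plus strand) began 75 bases, the Mdm2 half-site (chr10:117710925-117710954, minus strand) 186 bases and the Ei24 half-site (chr9:36797325-36797354, minus strand) 10 bases before the start. The Sesn1 half-site (chr10:41887256-41887285, plus strand) lay 173 bases before 1 of 2 start sites. The Aen half-site (chr7:78895927-78895956, plus strand) began at base 11 after 1 start site and 121 bases before the other. The single Phlda3 window held no match to these letters. Zmat3 and Trp53inp1 had no window.

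Library totals ran from 2472064 to 3105137 counts, and 1 count was worth 0.326 to 0.401 CPM (counts scaled to a common library size by TMM). The B-cell and CLL markers Cd79a, Cd79b, Ms4a1, Cd5 and Pax5 were present in every library. Pax5, a transcription factor of B cells, had 685 to 789.7 CPM in CK1i and 601 to 716.5 CPM in CTRL, and Cd5, a marker of CLL cells, had 27.7 to 31.7 CPM in CK1i and 25.9 to 34.3 CPM in CTRL. T-cell markers summed to at most 6.42 CPM and NK-cell markers to at most 1.3 CPM in any library, and the neutrophil genes Ly6g, Mpo and Elane were at 0 counts throughout. The other 2 neutrophil markers, S100a8 and S100a9, had 6 and 4 counts in CK1i replicate 1, a summed level of 3.29 CPM, and 0 in every other library. Of 7 monocyte and macrophage markers Cd14 was at 0 and Cd68 was the 1 gene with enough counts to test. The list summed to 33.9 to 39.5 CPM in CK1i and 23.8 to 27.5 CPM in CTRL, most of it Cd68. Markers of stroma and endothelium summed to 163 to 177 CPM in CK1i and 176 to 191 CPM in CTRL, most of it Pecam1. Of these 5 markers, Col3a1 and Cxcl12 were at 0 counts throughout. The source of the Pecam1 RNA was not tested. CTRL replicate 1 stood apart from the other libraries on the first principal component, at 31.4 against -12.4 to 4.68. With 3 libraries a group, an exact permutation test cannot give a p below 0.1.

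No member passed the threshold for a difference between CK1i and CTRL. Zmat3 and Cdkn1a, both targets of p53, had lower mean levels in CK1i libraries, 0.716 and 0.785 times those of CTRL libraries, while Trp53 itself had 1.12 times the CTRL level. Zmat3 was the 1 member of 10 whose groups did not overlap, a share close to the 9.7% of all tested genes without overlap. Over all members 8 had lower and 2 had higher estimates in CK1i, with a median log2 fold change of -0.12, beside -0.0055 over all tested genes, of which 51.2% had lower estimates. In edgeR's quasi-likelihood test with Benjamini-Hochberg adjustment over all genes, 0 of the 10 members had an adjusted p under 0.05, as did 0% of all genes. At an unadjusted p under 0.05 there was 1 member, Zmat3, where 4.7% of all genes reached that level. The count was 2, Zmat3 and Cdkn1a, with CK1i replicate 1, CTRL replicate 1 or CTRL replicate 3 left out, and 0 with CTRL replicate 2 left out. Over the fits with 1 library left out, 3.42% to 6.73% of all genes reached that level. DESeq2 and limma-voom also called 0 members (0.0795% and 0% of all genes), and each gave 1 member, Zmat3, an unadjusted p under 0.05. In this bulk RNA, fewer cells of a kind and less RNA per cell cannot be told apart.

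**Figure D1:**
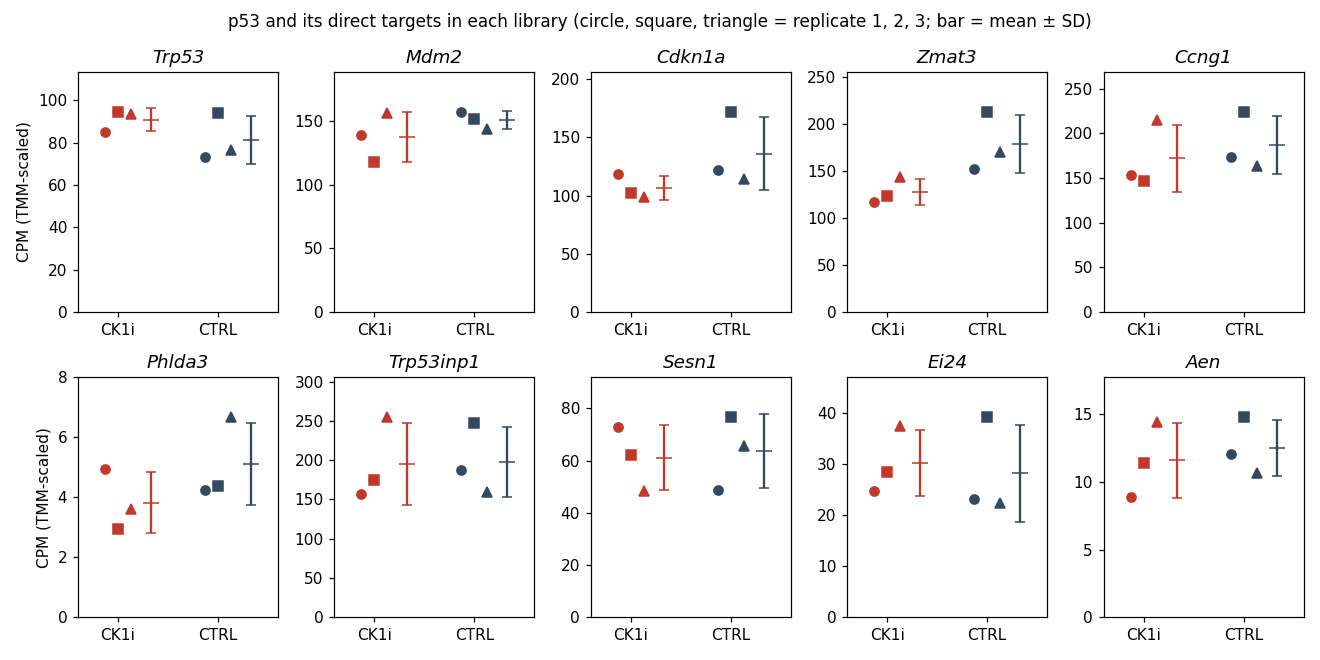
Level of each gene in CPM (vertical axis, from 0) in the 3 CK1i and the 3 CTRL libraries; points are libraries, marked by replicate, and bars are mean ± SD. Zmat3 is the gene whose 2 groups do not overlap, and CTRL replicate 2 is the highest library for 6 of the 10 genes.

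Trp53 (ENSMUSG00000059552, chr11:69580359-69591873 on GRCm38, plus strand) had 84.9, 94.6 and 93.4 CPM in CK1i replicates 1 to 3, against 73.1, 94.2 and 76.8 CPM in CTRL replicates 1 to 3. CTRL replicate 2 lay within the CK1i range and the other CTRL libraries below it, so the groups overlapped. The means were 91.0 ± 5.3 CPM in CK1i libraries and 81.4 ± 11.3 CPM in CTRL libraries (SD, n = 3 each). The log2 fold change was 0.16 ± 0.15 (SE; edgeR adjusted p = 0.999), and its 95% interval allowed a CK1i level of 0.9 to 1.39 times that of CTRL. The processed pseudogene Trp53-ps held 0 counts in all libraries.

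The members Mdm2 and Ccng1 act in the feedback on p53. Mdm2 (ENSMUSG00000020184, chr10:117688875-117710758, minus strand) had 138.5, 117 and 156 CPM in CK1i replicates 1 to 3, against 157, 151 and 143 CPM in CTRL replicates 1 to 3. CK1i replicate 2 was the lowest library and CK1i replicate 3 lay among the CTRL values. Its log2 fold change was -0.13 ± 0.14 (SE; edgeR adjusted p = 0.999), with an interval of 0.737 to 1.13 times the CTRL level. Ccng1 (ENSMUSG00000020326, chr11:40748552-40755311, minus strand), which carries the second full site above, encodes cyclin G1, a partner of protein phosphatase 2A that acts on MDM2. It had 153, 147 and 215 CPM in CK1i replicates 1 to 3, against 174, 224 and 163 CPM in CTRL replicates 1 to 3. Its high libraries were CK1i replicate 3 and CTRL replicate 2, 1 in each group, and the log2 fold change was -0.12 ± 0.17 (SE; edgeR adjusted p = 0.999).

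Cdkn1a (ENSMUSG00000023067, chr17:29090976-29100727, plus strand) encodes p21, the inhibitor of cyclin-dependent kinases through which p53 halts the cell cycle. It had 118.5, 102 and 99.1 CPM in CK1i replicates 1 to 3, against 122, 172 and 114 CPM in CTRL replicates 1 to 3. All CK1i libraries but replicate 1 lay below the CTRL range, and CTRL replicate 2 lay far above every other library. The means were 107 ± 10.4 CPM in CK1i libraries and 136 ± 31.1 CPM in CTRL libraries (SD, n = 3 each), and the log2 fold change came to -0.35 ± 0.17 (SE; edgeR unadjusted p = 0.0553, adjusted p = 0.999). The interval ran from 0.613 to 1.01 times the CTRL level. Without CTRL replicate 2 the log2 fold change was -0.15.

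Zmat3 (ENSMUSG00000027663, chr3:32334792-32366014, minus strand) encodes a zinc finger protein that binds RNA and acts as a tumour suppressor downstream of p53 in mice. It had 117.5, 123 and 143 CPM in CK1i replicates 1 to 3, against 152, 213 and 171 CPM in CTRL replicates 1 to 3. Every CK1i library lay below every CTRL library, an order that 4.48% of all tested genes showed and 9.7% in either direction. The gap between the nearest libraries, CK1i replicate 3 and CTRL replicate 1, was small beside the range within CTRL. The means were 128 ± 13.5 CPM in CK1i libraries and 179 ± 31.0 CPM in CTRL libraries (SD, n = 3 each), and the log2 fold change came to -0.48 ± 0.16 (SE; edgeR unadjusted p = 0.0077, adjusted p = 0.84). The interval ran from 0.569 to 0.902 times the CTRL level, and the gene ranked 91 by p among 10067. Leaving out 1 library at a time gave log2 fold changes of -0.59 to -0.34, with adjusted p from 0.594 to 1 over all alternatives tried, and without CTRL replicate 2 its unadjusted p was no longer under 0.05.

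**Figure D2:**
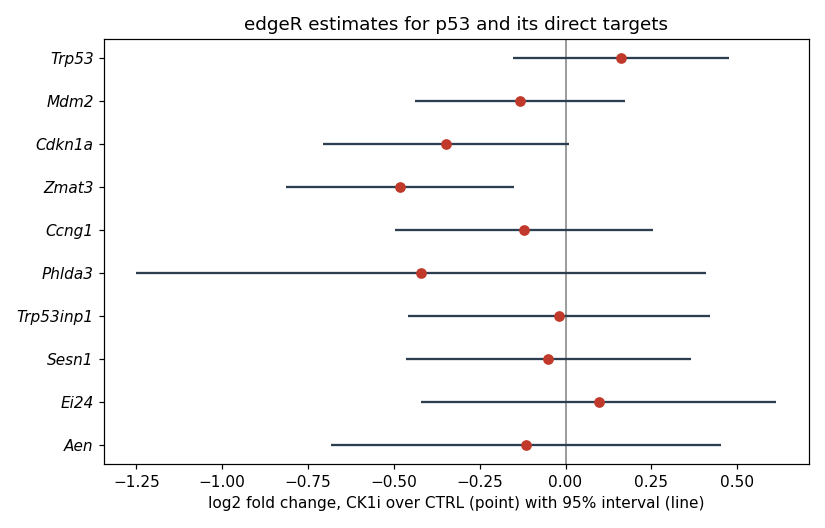
edgeR log2 fold change of CK1i over CTRL (points) with its 95% interval (lines) for each gene, with a grey line at 0. The Zmat3 interval lies below 0 before any adjustment over genes, the Cdkn1a interval ends just above 0, and Phlda3 has the widest interval.

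The members of cell death and survival signalling were Aen, Ei24, Phlda3 and Trp53inp1. Aen (ENSMUSG00000030609, chr7:78895854-78911209, plus strand), a nuclease that promotes apoptosis, had 8.88, 11.4 and 14.4 CPM in CK1i replicates 1 to 3, against 12.1, 14.8 and 10.7 CPM in CTRL replicates 1 to 3. The groups overlapped, and the log2 fold change was -0.12 ± 0.27 (SE; edgeR adjusted p = 0.999). Ei24 (ENSMUSG00000062762, chr9:36779159-36797393, minus strand), a membrane protein of the endoplasmic reticulum with roles in cell death and autophagy, had 24.7, 28.4 and 37.3 CPM in CK1i replicates 1 to 3, against 23.1, 39.1 and 22.4 CPM in CTRL replicates 1 to 3. CTRL held both the highest and the lowest libraries, and the log2 fold change was 0.10 ± 0.24 (SE; edgeR adjusted p = 0.999). The antisense gene Gm26787 overlaps Ei24 and held 5 counts in all libraries together.

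Phlda3 (ENSMUSG00000041801, chr1:135766119-135769136, plus strand) encodes a pleckstrin homology protein that restrains AKT. It was the member with the fewest counts, 15, 9 and 9 in CK1i replicates 1 to 3, against 12, 11 and 20 in CTRL replicates 1 to 3. At a mean of 12.7 counts, counting error alone has a coefficient of variation of 28.1%, about the spread seen within each group (26.6%). A difference was therefore hard to detect at this depth. Its log2 fold change was -0.42 ± 0.39 (SE; edgeR adjusted p = 0.999), with an interval of 0.421 to 1.33 times the CTRL level. Trp53inp1 (ENSMUSG00000028211, chr4:11156431-11174379, plus strand), a stress-induced protein that acts with p53 and in autophagy, had 157, 175 and 255 CPM in CK1i replicates 1 to 3, against 187, 247 and 159.6 CPM in CTRL replicates 1 to 3. Its spread within groups was wide and its log2 fold change, -0.02 ± 0.20 (SE; edgeR adjusted p = 1), was the smallest in size of the 10.

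Sesn1 (ENSMUSG00000038332, chr10:41809935-41908424, plus strand) encodes a sestrin, a protein that lowers mTORC1 activity and oxidative stress. It had 73.0, 62.0 and 48.5 CPM in CK1i replicates 1 to 3, against 48.6, 76.6 and 65.4 CPM in CTRL replicates 1 to 3. The 2 groups covered almost the same range, and the log2 fold change was -0.05 ± 0.19 (SE; edgeR adjusted p = 1). The gene model 9930024M15Rik lies on the same strand within Sesn1 and held 142 counts against 1058 of Sesn1, so how reads were divided between them is uncertain.

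Single libraries stood out across several members. CTRL replicate 2 was the highest library for 6 of the 10 members and the lowest for 0, and its summed member level was 1236 CPM. The share of all tested genes that were highest in this library was not counted. The sums were 881, 864 and 1066 CPM in CK1i replicates 1 to 3, against 953, 1236 and 932 CPM in CTRL replicates 1 to 3, so they overlapped (937 ± 112 CPM in CK1i libraries and 1040 ± 169 CPM in CTRL libraries, SD, n = 3 each). Ccng1, Trp53inp1, Ei24 and Aen had their highest levels in the same pair of libraries, CK1i replicate 3 and CTRL replicate 2, a pair that led in 7.82% of all tested genes. These were also the libraries with the lowest totals, 2472064 and 2472320 counts. Cdkn1a, Zmat3 and Sesn1 shared the peak in CTRL replicate 2 but not the high level in CK1i replicate 3. The plasma cell markers Sdc1 and Jchain summed to 854, 283.5 and 991 CPM in CK1i replicates 1 to 3, against 931, 1358 and 636 CPM in CTRL replicates 1 to 3, so their sum, too, was highest in CTRL replicate 2, and neither was at 0 in any library. The part of depth and of these markers in the member levels was not tested.

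**Figure D3:**
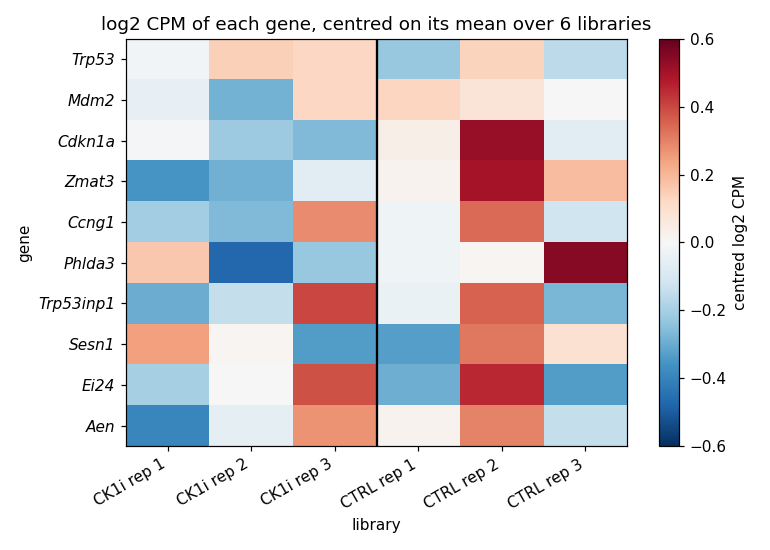
log2 CPM of each gene (rows) in each library (columns), centred on the gene's mean over the 6 libraries; red is above and blue below that mean, and the black line divides CK1i from CTRL. The column of CTRL replicate 2 is at or above the mean in all 10 rows, and Ccng1, Trp53inp1, Ei24 and Aen are also high in CK1i replicate 3.

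Leaving out CTRL replicate 2 moved the median log2 fold change of the members to 0.015, with 4 of 10 estimates lower in CK1i. Without CK1i replicate 3 the median was -0.28, and without CTRL replicate 1, the library apart on the first component, it was -0.16. Trp53 kept a positive estimate, and Mdm2, Cdkn1a, Zmat3 and Phlda3 kept a negative one, with each of the 6 libraries left out in turn. The estimates of Ccng1, Trp53inp1, Sesn1, Ei24 and Aen changed sign with at least 1 library left out.

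**Figure D4:**
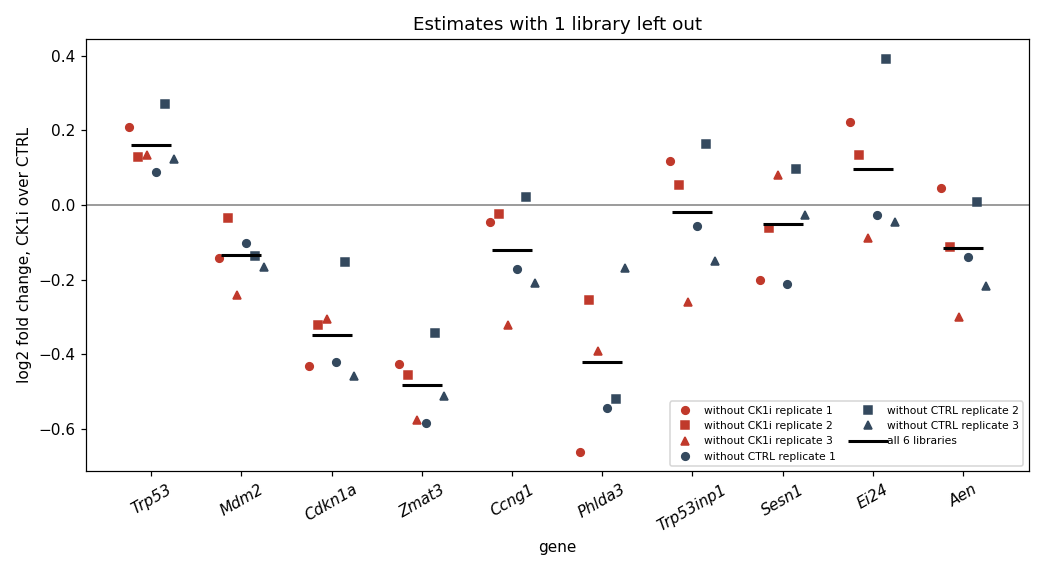
log2 fold change of CK1i over CTRL for each gene with 1 library left out (points; color and shape give the library) and with all 6 libraries (black bars), with a grey line at 0. Zmat3 stays between -0.59 and -0.34, and Cdkn1a moves to -0.15 without CTRL replicate 2.

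Other genes of the p53 pathway were read from lists of 82 genes, 69 of which could be tested, and 0 of them passed the edgeR threshold. Among 23 tested regulators of p53, 14 had lower and 9 had higher estimates in CK1i, with a median log2 fold change of -0.03. Unadjusted p was under 0.05 for 4 regulators, all lower, where 2% of all genes were lower at that level. The number was 0, 2 and 3 with CK1i replicates 1, 2 and 3 left out in turn. It was 4 with CTRL replicate 1 left out, Trim28 and Trp53bp1 being additions, and 1 with CTRL replicate 3 left out. With CTRL replicate 2 left out it was 4, 1 of them higher, with Chek1, Cop1 and Csnk1e as additions. Over these fits 3.42% to 6.73% of all genes reached that level. Mdm4, which encodes a relative of MDM2 that blocks p53, had 546, 673 and 744 CPM in CK1i replicates 1 to 3, against 852, 790 and 828 CPM in CTRL replicates 1 to 3. Its log2 fold change was -0.33 ± 0.15 (SE), with an edgeR adjusted p of 0.999. The groups did not overlap, with CK1i lower, as for 4.48% of all genes. With 1 library left out, its unadjusted edgeR p was under 0.05 only without CK1i replicate 3. Cdkn2a, whose p19ARF product inhibits MDM2 and whose p16 product shares its 3′ end, had 15.8, 16.6 and 22.5 CPM in CK1i replicates 1 to 3, against 19.9, 39.5 and 29.7 CPM in CTRL replicates 1 to 3, with overlap. Its log2 fold change was -0.70 ± 0.25 (SE; edgeR adjusted p = 0.929).

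With all libraries, the other regulators at that level were Usp10 and Wrap53. Usp10, a deubiquitinase of p53, had a log2 fold change of -0.45 ± 0.18, and Wrap53, the head-to-head neighbour of Trp53, had -0.66 ± 0.28 (SE). Atm, the kinase of the response to DNA breaks, averaged 74.6 ± 6.26 CPM in CK1i libraries and 73.2 ± 6.93 CPM in CTRL libraries (SD, n = 3 each). The genes of the inhibited kinases averaged 138 ± 3.8 CPM in CK1i libraries and 155 ± 16.9 CPM in CTRL libraries for Csnk1d, and 51.0 ± 8.57 CPM in CK1i libraries and 62.7 ± 15.6 CPM in CTRL libraries for Csnk1e (SD, n = 3 each). Of the 23 tested regulators, 5 did not overlap between the groups with CK1i lower: Mdm4, Usp10, Trp53bp1, Wrap53 and Csnk1d. Another, Ppm1d, did not overlap with CK1i higher. Over all tested genes 4.48% were lower and 5.22% were higher without overlap. The p53 relatives Trp63 and Trp73 held 1 and 3 counts in all libraries together.

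Of 10 tested cell death targets beside the members, 9 had lower estimates in CK1i and 1 had a higher one. The median log2 fold change was -0.14, and without CTRL replicate 2 they were 5 and 5. With all libraries the higher one was Siva1, at 13.4 ± 0.867 CPM in CK1i libraries and 9.57 ± 1.22 CPM in CTRL libraries (SD). Its log2 fold change was 0.50 ± 0.25 (SE), with an edgeR adjusted p of 0.999. The Siva1 groups did not overlap, with CK1i higher, as for 5.22% of all genes. Among the 9 lower ones, Bid and Bax were near 0, at log2 fold changes of -0.0008 and -0.02. Triap1, a small inhibitor of apoptosis, had 54.3, 48.0 and 45.3 CPM in CK1i replicates 1 to 3, against 59.3, 73.0 and 59.4 CPM in CTRL replicates 1 to 3 (log2 fold change -0.37 ± 0.16, SE; edgeR adjusted p = 0.999). The groups did not overlap, with CK1i lower, as for 4.48% of all genes. Triap1 was the 1 gene of the list with an unadjusted p under 0.05, where 2% of all genes were lower at that level. The list's count was 0 with CK1i replicate 2 or CTRL replicate 2 left out, and 2 with CK1i replicate 1 (Triap1 and Bbc3) or CK1i replicate 3 (Rps27l and Tnfrsf10b) left out. The pro-apoptotic genes Bbc3 (PUMA) and Pmaip1 (NOXA) overlapped between the groups. Bbc3 averaged 160 ± 53.4 CPM in CK1i libraries and 209 ± 13.8 CPM in CTRL libraries, and Pmaip1 57.0 ± 27.6 CPM in CK1i libraries and 59.3 ± 36.7 CPM in CTRL libraries (SD, n = 3 each). Bax, the BCL2 relative that permeabilises mitochondria, averaged 5.97 ± 2.51 CPM in CK1i libraries and 6.06 ± 0.989 CPM in CTRL libraries. Fas held 35 counts and Perp and Eda2r 1 count each over all libraries, too few to test.

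Among 8 tested arrest targets beside Cdkn1a, 4 had lower and 4 had higher estimates in CK1i. Btg2, among the higher ones, averaged 431 ± 25.9 CPM in CK1i libraries and 382 ± 24.5 CPM in CTRL libraries (SD). Its groups did not overlap, with CK1i higher, as for 5.22% of all genes. The nearest libraries, CK1i replicate 2 and CTRL replicate 2, were both at 406.4 CPM after rounding. Plk2, a stress-responsive polo-like kinase, averaged 68.3 ± 12.3 CPM in CK1i libraries and 93.1 ± 20.2 CPM in CTRL libraries (SD, n = 3 each), and Ptprv, a mouse phosphatase gene induced by p53, averaged 2.44 ± 0.809 CPM in CK1i libraries and 4.66 ± 0.576 CPM in CTRL libraries. These 2 had an unadjusted p under 0.05, both lower, where 2% of all genes were lower at that level. Neither passed after adjustment (edgeR adjusted p = 0.999 for both). Ptprv held 5, 10 and 6 counts in CK1i replicates 1 to 3, against 14, 10 and 15 in CTRL replicates 1 to 3. At a mean of 10 counts, counting error alone has a coefficient of variation of 31.6%, so depth limits this estimate. The Ptprv groups did not overlap, with CK1i lower, as for 4.48% of all genes. The list's count was 0 with CK1i replicate 3, CTRL replicate 1 or CTRL replicate 3 left out, 1 with CK1i replicate 1 or CK1i replicate 2 left out, and 3 with CTRL replicate 2 left out, Pvt1 being the addition. Of 6 tested DNA repair targets, 4 had higher and 2 had lower estimates (median 0.17). Ddb2, a sensor of ultraviolet damage, averaged 28.0 ± 2.86 CPM in CK1i libraries and 24.3 ± 3.5 CPM in CTRL libraries, and Pcna, the replication clamp, 189 ± 27.6 CPM in CK1i libraries and 166 ± 19.9 CPM in CTRL libraries. Of 13 tested metabolic and autophagy targets, 9 were lower and 4 higher (median -0.03), with Sco2, an assembly factor of cytochrome c oxidase, at -0.25 ± 0.19 and Ephx1, an epoxide hydrolase, at -0.18 ± 0.19 (log2 fold change, SE). No gene of the repair or metabolic lists had an unadjusted p under 0.05 with all libraries; Sco2 did with CK1i replicate 1 left out and Ephx1 with CTRL replicate 1 left out.

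p53 also lowers genes of cell division, through p21 and the DREAM complex. All 9 tested genes of that list had higher estimates in CK1i, with a median log2 fold change of 0.77, and 0 passed the edgeR threshold. Unadjusted p was under 0.05 for 7, all higher, where 2.7% of all genes were higher at that level, and for 5 the lowest CK1i value exceeded the highest CTRL value, as for 5.22% of all genes. Bub1, a spindle checkpoint kinase, had 23.0, 33.9 and 23.3 CPM in CK1i replicates 1 to 3, against 8.52, 17.96 and 15.02 CPM in CTRL replicates 1 to 3. Cdc20, an activator of the anaphase-promoting complex, had 61.5, 70.5 and 73.4 CPM in CK1i replicates 1 to 3, against 23.8, 47.5 and 47.4 CPM in CTRL replicates 1 to 3. The others of the 7 were Ccnb1, Ccna2, Cdk1, Birc5 and Aurka, with log2 fold changes of 0.60 to 0.90. CTRL replicate 1 was the lowest library for all 10 genes of the list, and without it the median was 0.48, with 9 of 9 higher and 5 at that level. Without CK1i replicate 2 the median was 0.56, with 4 at that level. Higher values of cell division genes in CK1i were already known when the list was drawn up, so the list is no independent evidence of that direction.

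**Figure D5:**
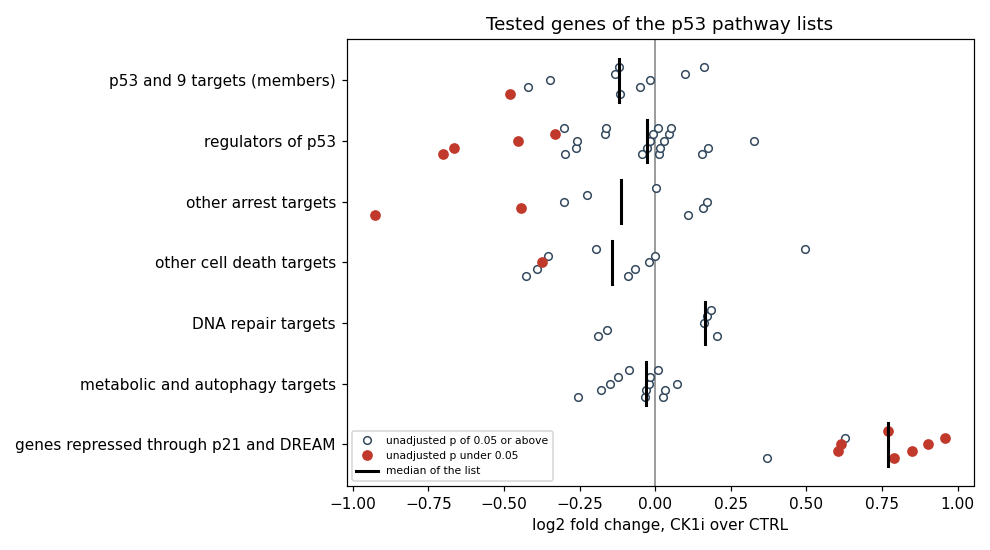
log2 fold change of CK1i over CTRL for each tested gene of the p53 pathway (points) by list, with the list's median as a black bar; filled points have an unadjusted edgeR p under 0.05. The list repressed through p21 and DREAM lies wholly above 0, with a median of 0.77, and the 10 members have a median of -0.12.

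The genes closest to Trp53 and to Cdkn1a in their pattern over the 6 libraries were found by the root mean square difference of centred log2 CPM, among 6743 other genes with a mean of at least 20 CPM. For Trp53 they were Zfp729b, Cnot4, Cltc, Rbbp7 and Mrpl44, at 0.0296 to 0.0419, where the median gene was at 0.23. For Cdkn1a they were Triap1, Eci1, Taf8, Csnk2a1 and Mocs2, at 0.0883 to 0.109, where the median gene was at 0.311. Triap1, also a p53 target, was the nearest gene to Cdkn1a, at 0.0883, with Eci1 next at 0.0953. The share of p53 targets among the 6743 genes was not counted. These distances are a description over 6 libraries.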

How the data were processed

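The authors deposited 1 table of whole-number counts per gene for 6 libraries, with 54232 genes and 0 columns of no sample. Per the labels' protocols, RNA of sorted splenic leukaemia cells went into libraries read from the 3′ end that carry unique molecular identifiers (UMIs). The build GRCm38.p6 and these tools are named in the submitters' processing notes, with no role or order: STAR 2.7.3a, featureCounts 1.6.3, UMI-tools 1.1.1, Trimmomatic 0.36, Picard 2.18.27, FastQC 0.11.9, bcl2fastq 2.20.0.422, Seurat and limma. UMI collapsing and strand setting are not given in the sources used here, so counting errors cover counting only. All libraries carry 1 batch label.

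The analysis used edgeR 4.0.16 in R 4.3.3: filterByExpr (minimum count 10, minimum total 15), TMM, and the robust, bias-adjusted quasi-likelihood F test of CK1i against CTRL, with Benjamini-Hochberg adjustment over 10067 genes and a threshold of 0.05. SE is the size of the log2 fold change divided by the root of F. log2 CPM used a prior count of 2. The test was checked on simulated data whose set changes were larger in size than the estimates of all members. That check does not cover changes of the members' size. Alternatives were other scaling, other filters, DESeq2 1.42.0, limma-voom (limma 3.58.1) and leaving out each library. Gene positions are those of GENCODE M21 (GRCm38). Members and lists were chosen with earlier results of these data known. Beside the members, the text names every list gene with an unadjusted p under 0.05, or the 2 with the smallest p where there was none, 7 genes of fixed interest (Csnk1d, Csnk1e, Mdm4, Atm, Bax, Bbc3 and Pmaip1) and the 5 genes nearest to Trp53 and to Cdkn1a. Genes with too few counts to test, marker genes, Siva1, Bid, Btg2 and Ppm1d were chosen after their values were seen. So were genes not otherwise named that reached that level only with a library left out: Rps27l, Tnfrsf10b, Pvt1, Trim28, Trp53bp1, Chek1 and Cop1. An item of the B-cell marker list is not reported here.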

Additional observations from a re-analysis of the deposited data

How the results depend on the processing

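No member was called by any of the alternatives, and 11 of 119 member estimates took the opposite sign, all of them with 1 library left out. Over those fits the log2 fold change ran from -0.32 to 0.022 for Ccng1, from -0.26 to 0.16 for Trp53inp1, from -0.21 to 0.097 for Sesn1, from -0.087 to 0.39 for Ei24 and from -0.30 to 0.044 for Aen. The median of the members ran from -0.28 (without CK1i replicate 3) to 0.015 (without CTRL replicate 2); under the other scalings, filters and tools it was -0.13 to -0.11. Over all tested genes edgeR called 0, while DESeq2 called 8 (6 higher, 2 lower) and edgeR without a filter 3 (2 higher, 1 lower), and with 1 library left out it called 0 to 1. The cause was not tested. Phlda3 was not tested at a mean of at least 10 CPM. With 12.7 counts a library, Phlda3 is limited by depth. No paired analysis was possible because the labels give no replicate number that the groups share.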

Other observations

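Counts of 1 member per count of another were taken within each library, which removes library scaling; 5 such ratios were formed after the counts had been seen. They depend on how well each transcript is captured and are read only between libraries. Zmat3 per Trp53 was 1.38, 1.3 and 1.53 in CK1i replicates 1 to 3, against 2.08, 2.26 and 2.22 in CTRL replicates 1 to 3 (exact permutation p = 0.1, two-sided, the smallest possible; adjusted p = 0.25 over the 5 ratios). Cdkn1a per Trp53 was 1.4, 1.08 and 1.06 in CK1i replicates 1 to 3, against 1.67, 1.82 and 1.49 in CTRL replicates 1 to 3 (exact permutation p = 0.1; adjusted p = 0.25). In both ratios the groups did not overlap. Each divides a gene with a lower estimate in CK1i by Trp53, which had a higher one, so the separation partly follows from that choice. CTRL replicate 2 was the highest library in both ratios and lay near the other CTRL libraries for Zmat3 per Trp53. Mdm2 per Trp53 overlapped, with 1.51 ± 0.237 in CK1i and 1.87 ± 0.27 in CTRL (SD, n = 3 each; exact permutation p = 0.3). Cdkn1a per Mdm2 (exact permutation p = 0.6) and Zmat3 per Mdm2 (0.2) overlapped as well. Cd68, the macrophage and lysosomal gene, averaged 32.8 ± 1.96 CPM in CK1i libraries and 23.3 ± 2.14 CPM in CTRL libraries (SD, n = 3 each). It did not pass the edgeR threshold (adjusted p = 0.929). The groups did not overlap, with CK1i higher, as for 5.22% of all genes. On the same marker list Csf1r was lower in CK1i without overlap, at 6 counts in all libraries together. Lyz2, Adgre1, C1qa and C1qb overlapped, and Cd14 was at 0.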
